A study of Homo sapiens with 8 samples.

Results

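The distal long arm of chromosome 11 (distal 11q) was examined in the MBD-seq peak lists of 8 neuroblastoma (NB) cell lines. A peak belonged to the region when its midpoint lay on chromosome 11 between 75 Mb and 133 Mb (GRCh37 coordinates). By this rule 10107 of the 711243 peaks in all lists were members, 829 to 1979 per line, and 702011 of all peaks were autosomal. In MBD-seq, genomic DNA is sheared, the methylated fragments are captured with the methyl-CpG-binding domain of the MBD2 protein and sequenced, and stretches with an excess of reads are called as peaks. MNA (MYCN amplification) was labelled for IMR-32, N206, CHP-902R and LA-N-2, and MYCN was labelled not amplified (MYCN single copy) for SJNB-1, SK-N-AS, CLB-GA and SH-SY5Y. Each line was profiled once, untreated, so the spread within a MYCN group is the spread between 4 cell lines and not between cultures of 1 line.

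NB is a childhood tumor of the sympathetic nervous system. Loss of distal 11q is one of its recurrent chromosome changes and is found mostly in high-risk tumors without MNA. The region carries DNA damage response genes (ATM, CHEK1, MRE11, H2AX), adhesion genes of neurons (NCAM1, CADM1, NTM), the matrix metalloproteinase cluster and MIR34B and MIR34C, microRNA genes that are induced by p53. CpG methylation of a promoter is commonly found at silenced genes, whereas the bodies of genes and most repeats are methylated in many cell types. The labels give no copy number of 11q for any line, and the peak lists hold neither reads nor copies. Fewer copies of a stretch and less methylation per copy therefore cannot be told apart here, and no line was grouped by 11q status.

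The sequences below are chosen examples and not a representative sample of the peaks of the region. They show a stretch common to all 8 lines, a stretch common to the 4 MNA lines and absent from the others, and peaks of a single line. They were read from the plus strand of GRCh37 (central part of at most 300 bp), and capitals mark CpG.
TENM4 exon, all lines, chr11:78380524-78380823: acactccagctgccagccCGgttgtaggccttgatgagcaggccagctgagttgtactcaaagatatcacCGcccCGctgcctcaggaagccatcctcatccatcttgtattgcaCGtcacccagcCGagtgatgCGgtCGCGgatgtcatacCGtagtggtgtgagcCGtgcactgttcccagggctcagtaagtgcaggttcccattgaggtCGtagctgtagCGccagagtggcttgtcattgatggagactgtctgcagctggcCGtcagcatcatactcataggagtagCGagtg
TENM4 exon, MNA lines, chr11:78775739-78776038: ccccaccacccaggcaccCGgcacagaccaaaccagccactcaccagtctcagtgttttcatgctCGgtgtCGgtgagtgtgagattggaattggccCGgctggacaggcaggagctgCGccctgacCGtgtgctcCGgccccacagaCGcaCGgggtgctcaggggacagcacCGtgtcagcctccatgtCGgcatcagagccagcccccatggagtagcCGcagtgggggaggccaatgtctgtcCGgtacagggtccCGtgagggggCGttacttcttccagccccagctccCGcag
PAK1 promoter, N206, chr11:77066696-77066995: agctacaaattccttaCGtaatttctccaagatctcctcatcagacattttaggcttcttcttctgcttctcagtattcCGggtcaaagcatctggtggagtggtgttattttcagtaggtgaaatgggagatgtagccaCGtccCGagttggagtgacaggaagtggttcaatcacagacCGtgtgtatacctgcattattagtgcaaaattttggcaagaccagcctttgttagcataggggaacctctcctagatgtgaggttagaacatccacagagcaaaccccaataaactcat
MIR34B promoter, LA-N-2, chr11:111383406-111383705: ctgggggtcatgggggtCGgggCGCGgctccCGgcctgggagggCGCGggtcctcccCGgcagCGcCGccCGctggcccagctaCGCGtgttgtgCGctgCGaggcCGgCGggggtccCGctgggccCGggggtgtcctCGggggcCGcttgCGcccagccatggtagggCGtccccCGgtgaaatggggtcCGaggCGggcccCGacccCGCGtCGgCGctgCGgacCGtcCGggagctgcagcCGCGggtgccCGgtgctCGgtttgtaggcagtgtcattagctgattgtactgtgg
The TENM4 stretches hold 14 CpG (all lines) and 16 CpG (MNA lines), the PAK1 stretch of N206 holds 5 CpG, and the MIR34B stretch holds 37 CpG in the same length. Of the 6 common stretches found in the MNA lines only, the TENM4 stretch was the richest in CpG (3.96 per 100 bp, median 3.11). The commonest 14-letter word of the region (CCTGTAATCCCAGC or its reverse complement GCTGGGATTACAGG) is known from Alu repeats, the most abundant mobile elements of the human genome, and occurred 9920 times. The word was present in the central 300 bp of 18.9% (SH-SY5Y) to 28.2% (IMR-32 and LA-N-2) of the distal 11q peaks per line, against 4.44% of all 300-bp stretches of the region. None of the printed stretches holds it. In each of the 8 lines, peaks overlapped by no other line held the word more often (22.5% in SH-SY5Y to 32.7% in LA-N-2) than peaks shared with another line (17.0% to 26.7%). These shares are a description of the peak positions and were not tested.

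Distal 11q peaks made up 1.46% of the autosomal peaks in IMR-32 (1282 peaks), 1.47% in N206 (1343), 2.04% in CHP-902R (1979) and 1.19% in LA-N-2 (1307). In the single copy lines they made up 1.08% in CLB-GA (829 peaks), 1.92% in SH-SY5Y (1610), 1.02% in SK-N-AS (862) and 1.28% in SJNB-1 (895). The share thus varied 2.01-fold between CHP-902R, the highest, and SK-N-AS, the lowest, and the groups overlapped. Wilson 95% confidence intervals were narrow beside this spread (0.951% to 1.09% for SK-N-AS and 1.95% to 2.13% for CHP-902R) and cover counting error only. The mean share was 1.54% ± 0.36 (SD, n = 4) in MNA lines and 1.32% ± 0.41 (SD, n = 4) in single copy lines, and the lines of a group differed by more than the means did (exact permutation test, two-sided, p = 0.457). The difference of 0.217 percentage points was 0.050 without CHP-902R (exact p = 0.943) and 0.417 without SH-SY5Y (exact p = 0.0857). The share of the autosomal covered length gave 1.4% ± 0.35 against 1.19% ± 0.39 (n = 4 each, exact permutation p = 0.457). With 4 lines against 4 this test cannot give a p-value below 0.0286. MNA lists were longer (96544 ± 9646 autosomal peaks, against 78959 ± 6827 in single copy lines, n = 4 each, exact permutation p = 0.0286), so peak numbers were read as shares of each line's own list.

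Chromosome 11 below 50 Mb, which covers the short arm, was the second reference. Numbers of distal 11q peaks per peak below 50 Mb were 0.983 in IMR-32, 1.36 in N206, 1.27 in CHP-902R and 1.32 in LA-N-2. The single copy lines gave 0.571 in CLB-GA, 1.26 in SH-SY5Y, 0.596 in SK-N-AS and 1.06 in SJNB-1. CLB-GA and SK-N-AS stood below the other 6 lines. In these 2 lines the distal part was low and the part below 50 Mb was high (1.88% of autosomal peaks in CLB-GA and 1.7% in SK-N-AS, against 0.904% to 1.61% in the other 6 lines). LA-N-2 and N206 had the lowest shares below 50 Mb (0.904% and 1.08% of autosomal peaks), which raised their ratios. The mean share below 50 Mb was 1.27% in MNA lines and 1.58% in single copy lines (exact permutation p = 0.2). On the log2 scale the ratio of peak numbers was 0.29 ± 0.21 in MNA lines and −0.28 ± 0.58 in single copy lines (SD, n = 4 each), a difference of 0.57 (exact permutation p = 0.143). For covered length the difference was 0.65 on the log2 scale (exact permutation p = 0.0571). With peaks scored at least 100 the ratio of peak numbers was 1.24 to 1.71 in MNA lines and 0.448 to 1.21 in single copy lines, so that the groups no longer overlapped (exact permutation p = 0.0286, the smallest possible). The gap between SH-SY5Y (1.21) and CHP-902R (1.24) that separates them is small, and the call therefore rests on the score chosen. The highest value (1.71) was that of IMR-32, the lowest MNA line with all peaks (0.983). The profile of IMR-32 has a step, described below. Of its distal 11q peaks, 30.0% of 1026 before the step and 9.4% of 256 after it scored at least 100. The value of 1.71 thus came mostly from the part before the step. Whether the groups stay apart in the rest of the region was not tested. At that score the distal 11q shares of autosomal peaks still overlapped between the groups. They were 0.801% to 2.28% in MNA lines and 0.757% to 1.85% in single copy lines. Below 50 Mb, N206 and LA-N-2 had 117 and 148 peaks of that score, IMR-32 194 and CHP-902R 239. The single copy lines had 79 to 294.

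**Figure D1:**
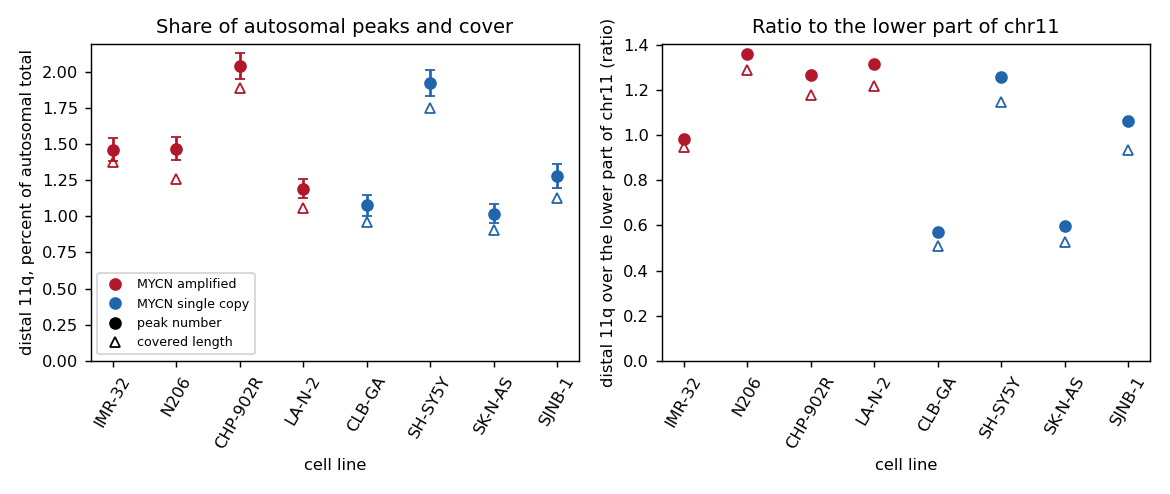
Left: share of each line's autosomal peaks (circles, with 95% Wilson intervals) and autosomal covered length (triangles) that lay in distal 11q, in percent. Right: distal 11q peak number (circles) and covered length (triangles) divided by those of chromosome 11 below 50 Mb. MNA lines are red and single copy lines blue. CHP-902R and SH-SY5Y have the highest shares (2.04% and 1.92%), and CLB-GA and SK-N-AS the lowest ratios (0.571 and 0.596).

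Relative to its CpG content, the region held fewer peaks than the autosomes. It contains 493922 CpG, and 2.56 ± 0.81 peaks were called per 1000 CpG, against 3.28 ± 0.46 over all autosomes and 2.63 ± 0.56 below 50 Mb (SD over 8 lines). Only CHP-902R and SH-SY5Y had more peaks per 1000 CpG in distal 11q than over the autosomes, and the mean difference of −0.72 passed the two-sided exact sign-flip test over 8 lines (p = 0.0312). The call was lost when any one of CLB-GA, IMR-32, N206, LA-N-2, SK-N-AS or SJNB-1 was left out (exact p = 0.0625 each). The difference from the part below 50 Mb did not pass (exact sign-flip p = 0.797).

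The profile along the region differed far more between lines than the totals. Peaks were counted in the 58 windows of 1 Mb, and the number expected in a line was the median share of the other 7 lines times that line's autosomal peaks. IMR-32 had 1026 peaks before 86 Mb, 3.39 times the expected number, and 256 peaks from there on, 0.285 times the expected number. The step was abrupt: the 1 Mb before it held 105 peaks and the 1 Mb after it 3, whereas in each of the other 7 lines the second number was the higher. Over 5 Mb on either side IMR-32 had 408 and 4 peaks. The same 5-Mb stretches held 120 and 89 peaks in CHP-902R, 83 and 55 in LA-N-2, 81 and 76 in N206, 70 and 48 in SH-SY5Y, 47 and 36 in SK-N-AS, 49 and 40 in SJNB-1, and 46 and 14 in CLB-GA. The IMR-32 step lay between peak midpoints at 85.97 Mb and 86.22 Mb, and EED, which encodes a subunit of a Polycomb repressive complex, lies at its start. The excess began before the region, with 1.98 times the expected number of peaks between 70 and 75 Mb, and rose to 2.55 times between 75 and 80 Mb and 5.51 times between 80 and 85 Mb. From 90 Mb to the end, every 5-Mb block of IMR-32 held 0.149 to 0.409 times the expected number.

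**Figure D2:**
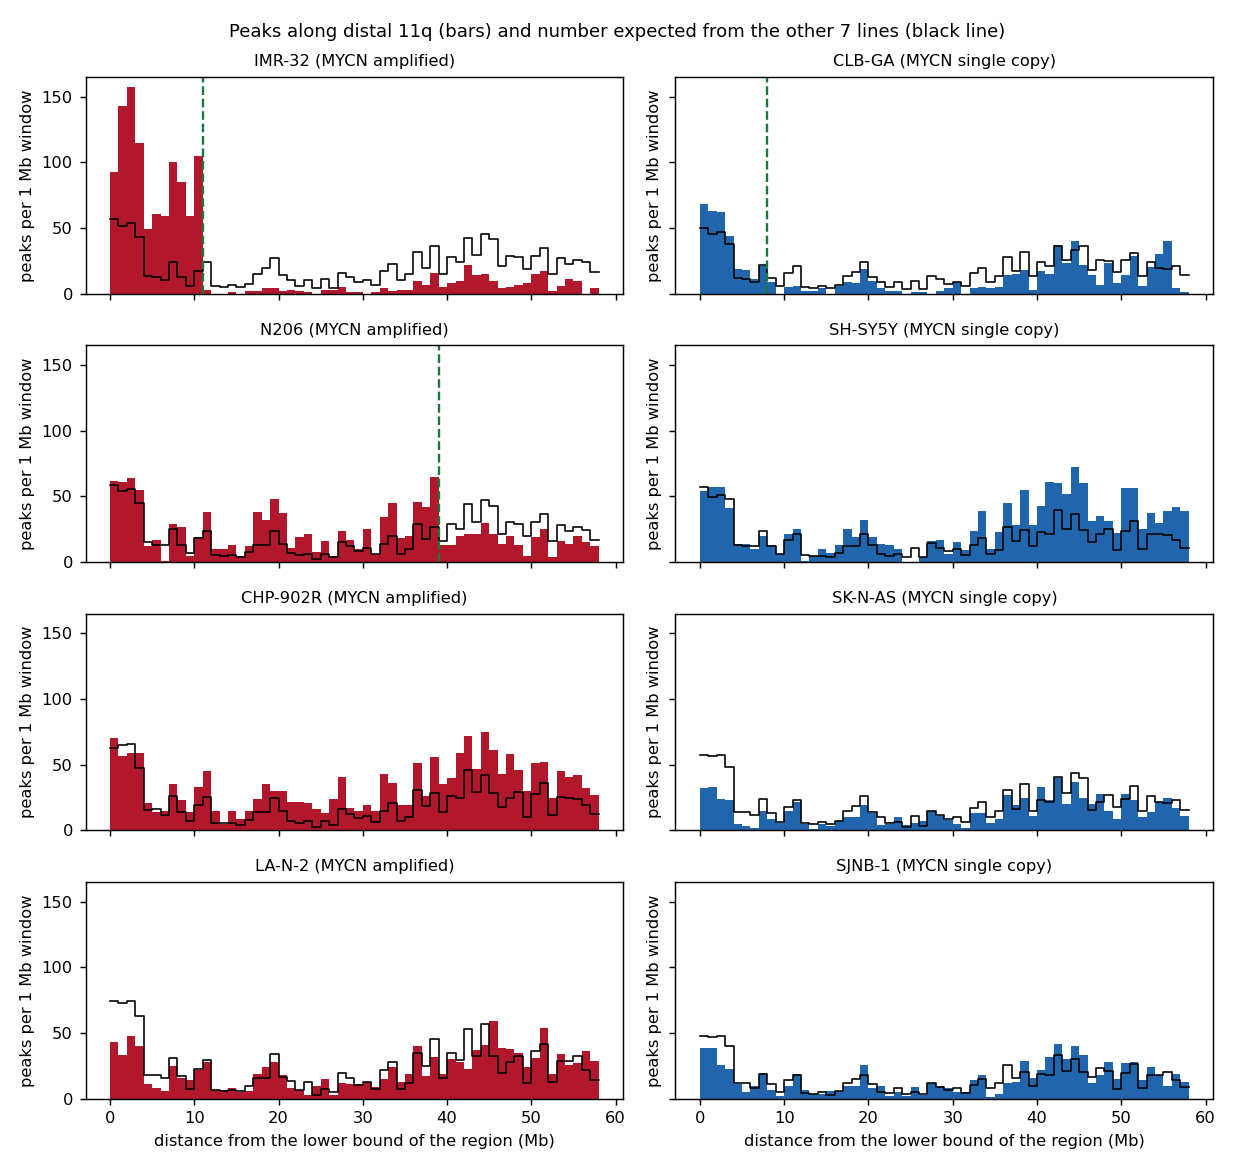
Number of peaks in each 1-Mb window (bars) against the distance from the lower bound of the region in Mb, 1 panel per cell line. The black line is the number expected from the other 7 lines, and the dashed green line the step of the 3 lines whose relative peak number fell to 0.5 or less. IMR-32 has 23 windows with at most 3 peaks, all other lines at most 14, and its highest window holds 157 peaks.

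N206 and CLB-GA also showed a downward step. The position of the step in each line was the one that best split observed from expected counts, and it was chosen from the same counts, so the ratios describe these lists and carry no test. N206 had 1027 peaks before 114 Mb (1.60 times expected) and 316 after it (0.587 times). Over 5 Mb on either side it had 191 and 88 peaks, whereas the numbers of the other 7 lines rose 1.13-fold to 2.41-fold. Over 1 Mb it had 65 and 13, but there the number fell in all 8 lines. The N206 step lay within ZBTB16, the gene of the transcription factor PLZF, between midpoints at 114.01 and 114.05 Mb. CLB-GA had 306 peaks before 83 Mb (1.31 times expected) and 523 after it (0.644 times). In the 5 Mb on either side of its step CLB-GA had 113 and 22 peaks, a ratio of 0.195, against 0.652 to 1.19 in the other lines. Over 1 Mb it had 21 and 9, but there too the number fell in all 8 lines, and further in SJNB-1 (20 and 7) than in CLB-GA. The ratio of relative peak numbers after against before the step was 0.0838 in IMR-32 (exact 95% interval 0.0728 to 0.0962, counting error only), 0.366 in N206 (0.322 to 0.416) and 0.493 in CLB-GA (0.427 to 0.569). The other 5 lines had their best step upward, with ratios of 1.53 in SJNB-1 to 1.81 in CHP-902R. The expected numbers of these 5 lines contain the lists of the 3 others.

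The same procedure was applied to 37 stretches of 58 windows on the other autosomes. A ratio of 0.5 or less was found in 5.41% of these stretches in IMR-32, 5.41% in N206 and 10.8% in CLB-GA, and in 2.70% to 16.2% in the other lines. The lowest ratio elsewhere was 0.402 in IMR-32, 0.222 in N206 and 0.322 in CLB-GA. The distal 11q ratio of IMR-32 was thus lower than in any of its other stretches, and lower than the lowest ratio of any line elsewhere (0.154, SH-SY5Y). Upward steps were found too, with highest ratios of 1.84 in SH-SY5Y to 12.0 in LA-N-2. The latter, on chromosome 4 (14 peaks before and 1353 after), was about as large in the other direction as the IMR-32 step on 11q. For N206 and CLB-GA, steps as large as on 11q were also found on other chromosomes.

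Counted by windows with at least 5 expected peaks, IMR-32 was at or below 0.5 of the expected number in 42 of 55 windows (76.4%), against 9.5% of all autosomal windows. CLB-GA was so in 21 of 52 (40.4%, background 16.9%). In SK-N-AS this held for 9 of 54 windows (16.7%, background 9.56%), in SJNB-1 for 6 of 50 (12.0%, background 8.04%) and in N206 for 7 of 54 (13.0%, background 12.6%). LA-N-2 (5 of 57, background 15%), SH-SY5Y (2 of 52, background 11.1%) and CHP-902R (0 of 55, background 7.07%) were below their background. CHP-902R had at least 2 times the expected number in 20 of 55 windows (36.4%, background 6.68%), N206 in 16 of 54 (29.6%, background 5.46%), SH-SY5Y in 15 of 52 (28.8%, background 2.59%) and IMR-32 in 10 of 55 (18.2%, background 5.31%). In LA-N-2 only 2 of 57 windows were this high (background 6.92%), in CLB-GA 1 of 52 (background 2.56%), in SJNB-1 1 of 50 (background 3.96%) and in SK-N-AS 0 of 54 (background 6.35%). Of the 58 windows, 0 had shares for which all MNA lines lay above all single copy lines (background 1.18%), and 0 showed the reverse (background 0.87%).

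In IMR-32 the properties of the peaks also differed between the 2 sides of its step. The lists hold only peaks scored at least 50. Whether these properties differed separately from the peak number was not tested. Before the step the median peak had 2.16 CpG per 100 bp, a score (−10 log10 of the MACS p-value) of 82.5, and 47.1% of the peaks were overlapped by no peak of another line. After the step the median was 2.66 CpG per 100 bp and the score 66.1, and 34.4% were found in no other line. In the other 7 lines the change in CpG density between the same sides lay between −0.26 and 0.22 CpG per 100 bp, and the change in score between −5.81 and 1.39, against 0.51 and −16.4 in IMR-32. The share of peaks found in no other line rose across the step by 8.16 to 22.0 percentage points in the other lines and fell by 12.7 points in IMR-32. Overlaps were counted with the IMR-32 list included. This share therefore depends on the peak numbers that placed the step and adds nothing separate from them. The share in promoter windows was 13.7% before and 22.3% after in IMR-32, and the Alu word was present in 31.5% and 14.8% of peaks. LA-N-2 had a still higher share with the word before the same position (35.2%, and 26.3% after it).

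**Figure D3:**
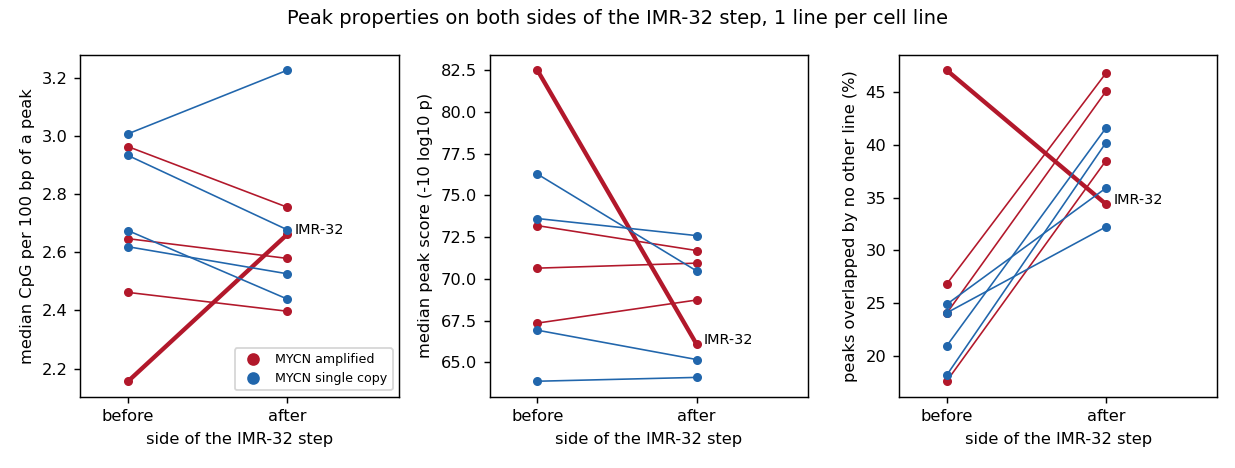
Median CpG per 100 bp, median score (−10 log10 p) and percentage of peaks overlapped by no other line, for distal 11q peaks before and after the IMR-32 step, with a line for each cell line (red MNA, blue single copy). IMR-32, the thick line, goes from 2.16 to 2.66 CpG per 100 bp and from a score of 82.5 to 66.1.

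Of the neural adhesion genes listed, 11 are at least 100 kb long, 2 of them before the IMR-32 step and 9 after it. The gene-body counts are a description with no test. Before the step, IMR-32 was the highest line in both genes. After it, IMR-32 was the lowest line in 5 of the 9 genes (NTM, FAT3, NCAM1, CDON and SORL1) and not in CNTN5, KIRREL3, DSCAML1 and NECTIN1. DLG2, a scaffold protein of the postsynaptic density whose gene spans 2173 kb before the IMR-32 step, held 147 peaks in IMR-32, against 38 in CHP-902R, 30 in LA-N-2, 27 in N206, 18 in SH-SY5Y, 15 in SK-N-AS, 8 in CLB-GA and 7 in SJNB-1. TENM4, a teneurin that guides neuronal contacts, held 58 peaks in IMR-32 and 17 to 44 in the other lines. On the other side of the step NTM (neurotrimin) held 0 peaks in IMR-32, 3 in CLB-GA and 12 to 45 in the other 6 lines. FAT3, an atypical cadherin, held 0 peaks in IMR-32, 5 in CLB-GA and 7 to 25 elsewhere. CNTN5, a contactin gene of 1338 kb, held 1 peak in IMR-32, 0 in CLB-GA and SH-SY5Y, and 4 to 20 in the remaining lines. NCAM1, the neural cell adhesion molecule, held 5 peaks in IMR-32, 7 in CLB-GA and 8 to 14 elsewhere. CDON, a cell surface receptor of the immunoglobulin family, held 1 peak in IMR-32 and 2 to 8 elsewhere, and SORL1, a sorting receptor, 1 and 5 to 15. KIRREL3 held 12 peaks in IMR-32 and in CLB-GA, 11 in SK-N-AS and 14 to 33 elsewhere. DSCAML1, a relative of the Down syndrome cell adhesion molecule, held 8 peaks in IMR-32, 3 in LA-N-2 and 11 to 29 elsewhere. NECTIN1 held 3 peaks in IMR-32, 2 in N206 and 4 to 9 elsewhere. A gene with a peak in its body is counted once per peak, and long genes hold more peaks, so levels are compared between lines and not between genes. The counts were not scaled to the length of the lists, which ran from 70110 autosomal peaks in SJNB-1 to 109880 in LA-N-2.

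**Figure D4:**
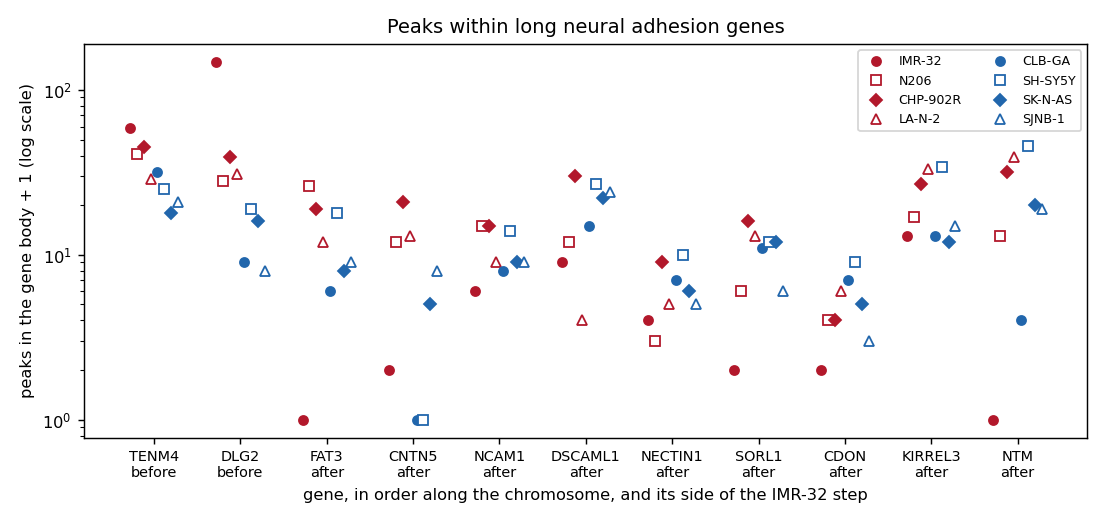
Number of peaks within the bodies of the 11 neural adhesion genes of at least 100 kb, plus 1, on a log axis. Genes are in order along the chromosome and each symbol is a cell line (red MNA, blue single copy). IMR-32 is highest in DLG2 (147 peaks) and TENM4 (58) and has no peak in FAT3 and NTM.

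Peaks found in a single line were ranked by score on the near side of that line's own step. In IMR-32 the strongest lay in an intron of GAB2, a docking protein of receptor tyrosine kinase signaling (chr11:78055994-78056327, score 233), between genes near DLG2 (chr11:83158548-83159549, score 212) and in an intron of DLG2 (chr11:84279107-84279542, score 207). Of the 10 strongest, 5 lay within DLG2, 1 of them in the promoter window of an internal start site (chr11:83876648-83877130, score 181). In N206 the strongest peak found only there was in the promoter window of an alternative start of PAK1, a p21-activated kinase (chr11:77066673-77067019, score 141, printed above). In CLB-GA it lay in a promoter window of ACER3, an alkaline ceramidase (chr11:76723081-76723448, score 126).

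Peaks that overlapped or touched were merged over the 8 lines into 6029 regions of distal 11q, of which 63.4% had a peak in 1 line only (autosomes 55.9%). All 8 lines had a peak in 15 regions (0.249%, background 0.649%). Each needs an IMR-32 peak, and 1026 of the 1282 IMR-32 peaks of distal 11q lay before the IMR-32 step. Of the 15 regions, 10 lay there. By mean score rank the first was in an intron of KIRREL3 (chr11:126319304-126322059, scores 116 in IMR-32 to 205 in LA-N-2). Others lay in exons of TENM4 (chr11:78379934-78382073, scores 81.7 to 160), in an intron of TRPC6, a calcium channel gene (chr11:101572107-101572731), and in an intron of EMSY, a partner of BRCA2 (chr11:76203224-76205482). The common stretches at promoter windows of alternative starts of PRCP, prolylcarboxypeptidase (chr11:82681395-82682366, 10.2 CpG per 100 bp), and USP35, a deubiquitinase (chr11:77906855-77908436, 10.4 CpG per 100 bp), were the richest in CpG. A stretch common to all lines was found in 10 of the 15 regions and held 2.53 to 10.4 CpG per 100 bp, with a median of 5.20, whereas the median distal 11q peak of a line had 2.24 (IMR-32) to 3.12 (CLB-GA).

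A peak in all 4 MNA lines and no single copy line was found in 6 regions (0.0995%, background 0.121%). They lay in introns of PAK1 (chr11:77144455-77144952), THAP12 (chr11:76082673-76083387) and EED (chr11:85965364-85966113), in an exon of TENM4 (chr11:78775294-78776224), and between genes near GDPD4 (chr11:77030188-77030712) and at chr11:97408644-97409174. Before the IMR-32 step lay 5 of the 6. The reverse pattern was found in 2 regions (0.0332%, background 0.0394%), in an exon of TMEM45B (chr11:129696602-129698015) and near BSX (chr11:122861127-122862190). Both lay after the step, where IMR-32, which must lack a peak in them, held 256 peaks. The shares of both patterns are near the background. Leaving out 1 line gave 6 to 22 regions (22 without IMR-32) and 3 to 9 regions (9 without SK-N-AS), respectively.

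The region holds 381 protein-coding genes. A peak in a promoter window (−1500 to 1000 bp around any annotated transcription start site) was found for 77 of them in IMR-32 (20.2%, background 42.5%), 92 in N206 (24.1%, background 37.4%), 146 in CHP-902R (38.3%, background 38.3%) and 110 in LA-N-2 (28.9%, background 40.6%). In the single copy lines it was found for 76 in CLB-GA (19.9%, background 36.7%), 149 in SH-SY5Y (39.1%, background 39.4%), 86 in SK-N-AS (22.6%, background 34.7%) and 89 in SJNB-1 (23.4%, background 34.4%). CHP-902R and SH-SY5Y were at the level of all autosomal genes and the other 6 lines below it. With 1 canonical start site per gene the numbers fell to 31 in N206 through 66 in SH-SY5Y, and the same 2 lines stood highest. The canonical share was 17.3% in SH-SY5Y (18.1% over all autosomal protein-coding genes) and 15.5% in CHP-902R (15.8%). It was 13.6% in LA-N-2 (17.1%), 9.45% in IMR-32 (21.8%) and 8.14% in N206 (15.2%). CLB-GA and SK-N-AS had 8.66% (14.8% and 14.7%) and SJNB-1 9.71% (14.5%). Before the IMR-32 step, 41 of 55 genes (74.5%) had a promoter peak in IMR-32, against 36.4% to 54.5% in the other lines. After it, 36 of 326 (11%) had one, against 15.6% in CLB-GA and 20.2% to 36.5% in the remaining lines. No promoter of the region, of 1199 genes of any type, separated the MYCN groups (0 genes in either direction, background 0.152% and 0.0523%). In all 8 lines a promoter peak was found for 6 protein-coding genes (1.57%, background 6.40%): PRCP, USP35, NCAM1, TRIM29 (a TRIM family protein), PIWIL4 (a piRNA-binding Argonaute protein) and PHLDB1 (a cytoskeletal adaptor). The strongest peaks lay at 4 different start sites in TRIM29, 5 in PHLDB1 and 3 each in PIWIL4 and NCAM1. Only PRCP and USP35 had them at 1 start site, an alternative one. With 1 canonical start site per gene, 0 of 381 genes had a peak in all 8 lines (background 0.978%). A promoter peak at any start site was found in at least 2 lines for 183 genes (48.0%, background 62.4%). In no line was one found for 135 genes (35.4%, background 24.8%).

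**Figure D5:**
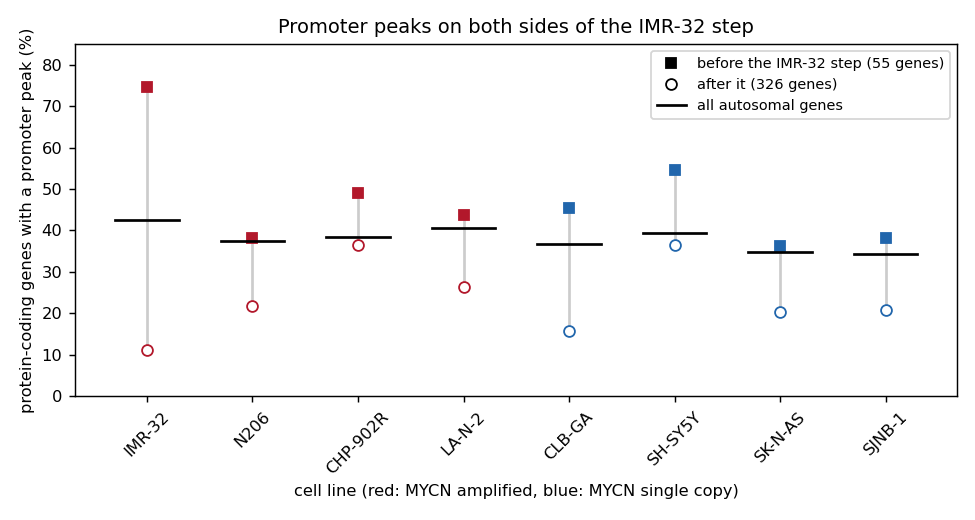
Percentage of protein-coding genes with a promoter peak in each cell line, for the 55 genes before the IMR-32 step (squares) and the 326 genes after it (open circles), with the percentage over all autosomal protein-coding genes as a black bar. In all 8 lines the genes after the step have the lower percentage, and the gap is widest in IMR-32 (74.5% and 11%).

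Among 20 DNA damage response and tumour suppressor candidates, 15 had a promoter peak in at least 1 line and 6 had one at their canonical start, against 246 and 145 of all 381 protein-coding genes of the region. The median member had one in 2 lines and the median of all 381 genes in 1 line. MRE11, H2AX, SDHD (a subunit of succinate dehydrogenase) and CBL (a ubiquitin ligase) had none in any line. CHEK1, the checkpoint kinase CHK1, had one in LA-N-2 only (score 115). ATM, the kinase that responds to double-strand breaks, had peaks in 7 lines, all but CLB-GA, but these lay at internal start sites 59.1 to 107 kb downstream of its canonical start, and none lay at that start. KMT2A, a histone methyltransferase, was alike, with peaks in 5 lines, 36.4 to 60.7 kb downstream. ZBTB16 had a promoter peak in every line but IMR-32, with scores of 59.6 in CLB-GA to 148 in SH-SY5Y. In 5 lines a ZBTB16 peak lay in the canonical window. The strongest lay 1.10 to 1.41 kb upstream of the canonical start in CLB-GA, SH-SY5Y and N206. In CHP-902R, LA-N-2, SK-N-AS and SJNB-1 it lay 3.70 to 4.10 kb downstream. CADM1, an adhesion molecule, had a promoter peak in IMR-32, SH-SY5Y, LA-N-2 and SK-N-AS, about 2 kb upstream of the canonical start.

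Of 20 neural adhesion genes, 18 carried one in some line, 15 of them in CHP-902R and 6 in IMR-32, where all 381 genes gave 246, 146 and 77. The median member had one in 4 lines. With 1 canonical start site per gene, 9 of the 20 had one in some line, against 145 of all 381 genes. At NCAM1 a peak lay in the canonical window in CLB-GA, N206, CHP-902R, SK-N-AS and SJNB-1. The strongest peak lay 1.2 to 1.4 kb upstream of the canonical start in CLB-GA (score 105), SK-N-AS (104), SJNB-1 (67) and N206 (61.4). In SH-SY5Y, CHP-902R, LA-N-2 and IMR-32 the strongest peak was at an internal start site 270 to 309 kb downstream (scores 59.1 to 159). THY1, a surface glycoprotein of neurons, had one in SH-SY5Y, N206, CHP-902R, LA-N-2 and SJNB-1, near 3 kb downstream of the canonical start. Of 15 neurotransmitter receptors and ion channels, 13 had one in some line, 10 in SH-SY5Y and 2 in N206, where all 381 genes gave 246, 149 and 92. The number for some line fell to 8 of 15 with 1 canonical start site per gene. DRD2, the dopamine D2 receptor, had one in every line but IMR-32, all 50.8 to 57.4 kb downstream of its canonical start. Of 16 transcription factors 13 had one in some line, against 246 of 381. With canonical start sites only, the numbers were 7 of 16 and 145 of 381. ETS1 had one in SH-SY5Y, CHP-902R, SK-N-AS and SJNB-1, and FLI1 in SH-SY5Y, LA-N-2 and SK-N-AS, so that IMR-32, CLB-GA and N206 had neither. Only the ETS1 peak of SJNB-1 lay near the canonical start (0.779 kb downstream). In SH-SY5Y, CHP-902R and SK-N-AS the strongest ETS1 peak lay 80.9 to 81.8 kb downstream. No FLI1 peak lay in the canonical window. The strongest lay 62.9 kb downstream in SH-SY5Y and SK-N-AS, and upstream in LA-N-2.

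Of 9 matrix metalloproteinase genes only MMP13, a collagenase, had one, and only in CHP-902R. Of 9 genes of the caspase-1 cluster and the inhibitors of apoptosis 3 had one, and of 24 olfactory receptor genes 7, against 246 of all 381 genes. Of 16 epithelial, mesenchymal and matrix genes 11 had one, near the share of all 381 genes (246). Of 4 apolipoprotein genes 2 had one and of 6 lymphocyte genes 2, against the same 246 of 381. Among the apolipoprotein genes APOA5, a regulator of plasma triglycerides, had one in 7 lines. Among 7 microRNA genes 3 had one in some line, and no share over all microRNA genes is given here. MIR100, MIRLET7A2 and MIR125B1 had none, and MIR34B and MIR34C shared 1 peak in LA-N-2 only (chr11:111383158-111383955, score 104). This peak was 798 bp long and held 80 CpG, 10.03 per 100 bp, against 2.80 in the median distal 11q peak of LA-N-2 (its central part is printed above).

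Distal 11q peaks resembled all autosomal peaks of their line, distal 11q included, in most properties. They were narrower in all 8 lines, with a mean of the medians of 462 bp against 481 bp, but the difference of −19.4 bp did not pass after adjustment over 7 properties (exact sign-flip p = 0.00781, the smallest possible, Benjamini-Hochberg adjusted p = 0.0547). The share of intergenic peaks was 24.0% against 25.9% (adjusted exact p = 0.109), and promoter windows took 17.3% against 18.3% (adjusted exact p = 0.361). Median CpG density differed by −0.04 CpG per 100 bp (adjusted exact p = 0.501) and the median score by −0.036 (adjusted exact p = 0.992).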

How the data were processed

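MBD-seq libraries of 8 NB cell lines were sequenced once each. Per the labels and the study's methods, the authors aligned paired reads with Bowtie 0.12.7 to GRCh37 and called peaks per line with MACS. The deposited lists give, for each peak, a position and a score (−10 log10 of the MACS p-value, at least 50). They do not give the depth of each line, and no input control is stated. Sex chromosomes were left out of shares. Promoter windows ran from −1500 to 1000 bp around every start site of GENCODE 44 (lifted to GRCh37), and classes were promoter, exon, intron and intergenic, in that order. CpG and sequences were read from GRCh37.

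MYCN groups came from the labels. Groups were compared by two-sided exact permutation tests and distal 11q with reference parts by exact sign-flip tests over the lines (Python 3.11.15, scipy 1.17.1), with Benjamini-Hochberg adjustment over 7 properties. Scripts were tested on simulated data. Members, gene lists and tests were chosen with earlier results of these data known, and the step analysis, gene-body counts and the 14-letter word after seeing the peak positions. By rule, 19 listed genes were named whatever their values, as were genes with a promoter peak in all lines or separating the groups (at most 10 outside the lists), and at most 10 merged regions of each kind by score rank. DLG2, TENM4, NTM, FAT3, CNTN5, KIRREL3, CDON, SORL1, DSCAML1, NECTIN1, GAB2, ACER3, MMP13 and APOA5 were chosen after their values were seen. Alternatives are given in the closing section. The sequences of some of these regions are not reported here.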

Additional observations from a re-analysis of the deposited data

Results flagged for a closer look

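Within the groups of 4 lines, 12 measures of distal 11q were checked for a line far from the other 3 of its group (Dixon's gap test, 24 checks, of which chance flags about 1 in 20). In 4 checks a line stood apart. CHP-902R had 4.01 peaks per 1000 CpG, against 2.60 to 2.72 in the other MNA lines. SH-SY5Y had 3.26 peaks per 1000 CpG, against 1.68 to 1.81 in the other single copy lines. The median distal 11q peak of IMR-32 was 522 bp wide, against 444 to 450 bp in the other MNA lines, and its median autosomal peak was also the widest (549 bp). The ratio of relative peak numbers after against before the fitted step was 0.493 in CLB-GA, against 1.53 to 1.73 in the other single copy lines. IMR-32 was not flagged for this ratio (0.0838), because N206, another MNA line, also had a low ratio (0.366).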

How the results depend on the processing

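Of 226 alternative values, 161 kept their direction and side of the threshold or moved by less than the margin set for them. With peaks scored at least 100, the log2 ratio to chromosome 11 below 50 Mb differed between MYCN groups by 0.92 for peak numbers and 0.91 for covered length (exact permutation p = 0.0286 each). Most IMR-32 peaks of distal 11q with that score lay before its step. The distal 11q shares of autosomal peaks still overlapped between the groups with that score. For the log2 ratio of covered length, leaving out 1 line gave 0.48 to 0.87, the latter without SH-SY5Y (exact p = 0.0286). Peaks per 1000 CpG against the part below 50 Mb turned to 0.0052 with that score, to 0.13 without CLB-GA and to 0.11 without SK-N-AS, with a lowest value of −0.17. Against the autosomes the difference was −0.14 with that score (exact p = 0.109), and −0.88 to −0.62 with a line left out. With that score the promoter share turned to 1.09 percentage points and the CpG density to 0.12 per 100 bp. The difference in median score turned to 0.11, 0.021, 0.45, 0.29 and 0.033 without CLB-GA, N206, LA-N-2, SK-N-AS and SJNB-1, with a lowest value of −0.94.

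Merged regions with peaks in all MNA lines only numbered 0 with that score, 2 with equally long lists and 6 to 22 with a line left out. Those in all single copy lines only numbered 0 with that score, 1 when peaks within 500 bp were merged and 3 to 9 with a line left out. Promoters that separated the groups numbered 0 to 2 (MNA) and 0 to 3 (single copy) with a line left out, and windows 0 to 3 in either direction. The step ratio of IMR-32 was 0.032 with that score, 0.063 when expected from the lines without a downward step, and 0.069 to 0.085 with a line left out. That of N206 was 0.211, 0.320 and 0.333 to 0.378, and 0.419 with the mean in place of the median. That of CLB-GA was 0.359 when expected from the lines without a downward step and 0.394 to 0.515 with a line left out. The cause of these changes was not tested. No paired analysis was possible because the replicate numbers only follow the order of the samples. The lists do not give the depth behind them.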
